A study of Sus scrofa with 16 samples.

Results

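Strongly cytotoxic gamma delta T cells of the pig small intestine were 176 of 7061 cells kept from 4 droplet libraries. A cell was counted by its unique molecular identifiers (UMIs, 1 per captured RNA molecule). It needed at least 1 UMI of CD3E, a chain of the T cell receptor complex, and at least 2 of TRDC, the constant part of the delta chain. It had to hold no UMI of CD4, CD8B, CD79B or MS4A1, fewer than 3 UMIs over the division genes TOP2A, CENPF and TPX2, and at least 5 UMIs over GNLY and GZMB. The last pair encodes granulysin and granzyme B, 2 proteins of killing granules. Cells that met the rest of the rule with 0 to 4 such UMIs, called weakly cytotoxic below, numbered 661.

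The cells came from the intestinal epithelium of 7.5-week-old female pigs of mixed breed. Epithelium was freed with dithiothreitol and EDTA, enriched for living cells on Percoll, and sequenced from the 3' end of polyadenylated RNA (10x Chromium, version 3). DUOD was duodenum from just behind the pylorus and JEJ was jejunum. The ileum was split into pieces with Peyer's patches, the gut's own lymphoid tissue (IPP), and pieces free of them (NoPP). No treatment or genotype differed between the groups.

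Gamma delta T cells carry a receptor built from gamma and delta chains, and many sit between the epithelial cells of the gut. Killer lymphocytes store perforin, granzymes and granulysin in granules and release them onto a target cell, where perforin and granulysin open membranes and granzymes cut proteins inside. Pigs have many more circulating gamma delta T cells than humans or mice, and their gut epithelium holds large numbers of them. Many of these cells also carry receptors known from natural killer cells, such as NKG2D, the product of KLRK1.

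The 16 sample titles fall into 4 per region, but each library pools the cells of its region with no mark of the title, so a region was 1 sample. Differences between regions therefore carry no p-value, and intervals on levels and ratios are 95% intervals for counting error only. The libraries held 44726845 to 91813234 UMIs over all barcodes. DUOD gave 28 strongly cytotoxic cells with 129182 UMIs, JEJ 21 with 92881, IPP 54 with 229530 and NoPP 73 with 264493. Levels are given as CPM, a gene's share of all UMIs of the summed cells on the usual CPM scale, so a gene without a UMI could be as high as 23.2, 32.3, 13.1 and 11.3 CPM in those 4 libraries (3 UMIs per library). A sum over a class does not separate fewer cells with a transcript from less of it per cell.

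A few barcodes stood apart. In DUOD 1 of the 28 cells held 34786 UMIs, 26.9% of all UMIs of the class in that library, and 3.26% of them came from 13 epithelial genes. In IPP 1 of the 54 cells held 31941 UMIs, 13.9% of the class, with 8.87% from these genes. These 2 mixed barcodes carried 93.3% and 96.4% of the epithelial UMIs of their class, and JEJ and NoPP had none, so results on DUOD or IPP are also given without them. The epithelial genes summed to 9405 CPM in DUOD and 12809 CPM in IPP with these barcodes, and to 869 and 536 CPM without them, against 1034 CPM in JEJ and 265 CPM in NoPP. Weakly cytotoxic gamma delta T cells held 2, 1, 0 and 1 mixed barcodes in DUOD, JEJ, IPP and NoPP, and strongly cytotoxic CD8B T cells 1, 4, 0 and 1. The weakly cytotoxic one in JEJ had 41133 UMIs, 11.8% of its class there. Levels of these classes by library include them. No member barcode was kept in a second library, and none was among the 121 NoPP barcodes left out because DUOD held them with 10 or more times the UMIs. A further deep IPP cell, with 19859 UMIs, did not count as mixed, since few of its UMIs were epithelial. It stays in all values given without the mixed barcodes. Of the 76 MEF2C UMIs of the class left in IPP without the mixed barcode, it held 9.

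Doublet scores marked the class more often than its neighbours. The highest scores were marked at 0.8% per 1000 kept cells, so a larger library had a larger share marked. That was 4 of 718 cells in DUOD, 8 of 986 in JEJ, 86 of 3273 in IPP and 35 of 2084 in NoPP. Of the 176 cells of the class 33 (18.8%) were marked. Of weakly cytotoxic gamma delta T cells it was 5 of 661 (0.756%), and of strongly cytotoxic CD8B T cells 10 of 541 (1.85%). Within the class it was 18 of 54 (33.3%) in IPP, 12 of 73 in NoPP, 2 of 21 in JEJ and 1 of 28 in DUOD. The marked cells had a median of 3092 UMIs and the others 3341. The automatic threshold marked 24 of 7061 cells (0.340%) and was not used. Whether marked cells hold RNA of more than 1 cell was not tested.

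The T cell receptor genes with a symbol fitted the label, but the constant genes TRAC, TRBC and TRGC had none. The 19 named V genes of the alpha and beta chains had 0 UMIs in strongly cytotoxic gamma delta T cells of every library. In strongly cytotoxic CD8B T cells they had 4, 6, 10 and 12 UMIs, from DUOD to NoPP. Those equal 23.1, 20.6, 19.5 and 16.4 CPM, near the floor of 11.3 to 32.3 CPM in the gamma delta T cells. Of the 5 CD4 T cell markers, CD4 was at 0 by the rule, and CD40LG, FOXP3, CTLA4 and IL6R were at 0 in all 4 libraries. NCR1 and KLRF1, receptors of natural killer cells, were at 0 as well, and KLRD1 had 1 UMI, in NoPP. Other markers of natural killer cells went the other way. FCER1G stood at 1112 CPM in the 132 cells with 10 or more UMIs of GNLY and GZMB, and TYROBP had UMIs in IPP and NoPP. Of the 7 B cell and plasma cell markers, JCHAIN accounted for most UMIs in DUOD, JEJ and IPP, at 69.7, 64.6, 95.8 and 0 CPM in the order DUOD, JEJ, IPP and NoPP. All 7 summed to 85.2, 64.6, 152 and 3.78 CPM, against 13.3, 20.1, 49.8 and 11.3 CPM in weakly cytotoxic cells. In IPP 6 of the 7 had UMIs, 35 in all, and the sum was 172 CPM without the mixed barcode. Whether B cell RNA was present in these cells was not tested. The 10 myeloid markers summed to 64.6 to 271 CPM, and to 31.8 to 96.2 CPM without the mixed barcodes.

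The cells were chosen by their UMIs of CD3E, TRDC, GZMB and GNLY, so the levels of these genes only describe them. Summed over the cells of a library, GZMB reached 2771, 6632, 4705 and 6855 CPM in DUOD, JEJ, IPP and NoPP. TRDC stood at 1649, 2767, 2266 and 3183 CPM and CD3E at 2787, 3941, 2387 and 2216 CPM in the same order. The median cell held 10.5, 24, 16 and 19 UMIs of GZMB, and the highest held 120, in NoPP. GZMB was present in nearly all cells, since only 2 of the 176 had none, both in NoPP, while 110 had no GNLY. An IPP cell with 3043 UMIs and a NoPP cell with 2116 UMIs passed the rule without a UMI of GZMA, KLRK1, FCER1G or CCL5.

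**Figure D1:**
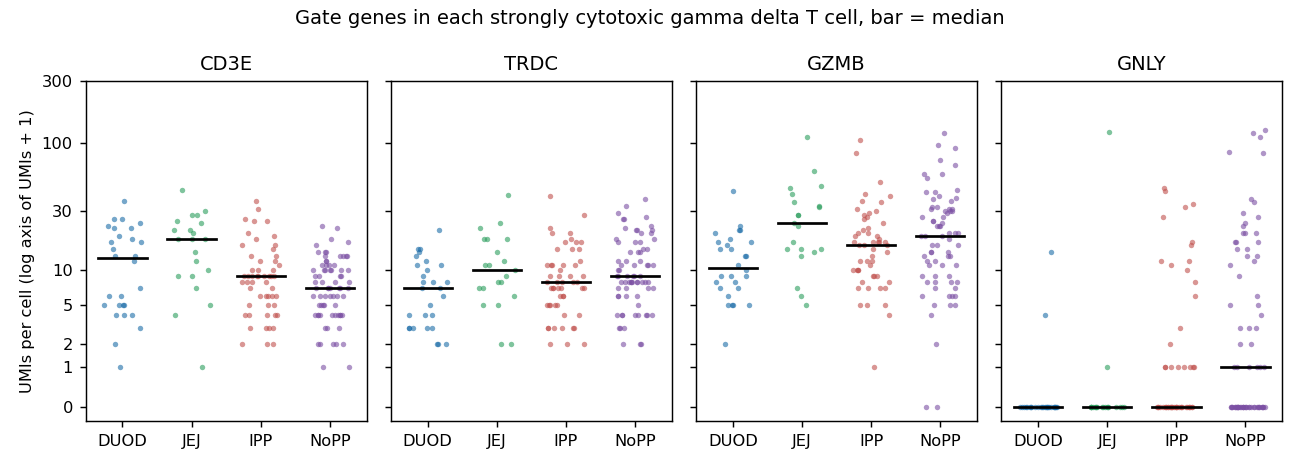
UMIs per cell of the 4 genes that chose the cells (log axis of UMIs + 1), 1 point per strongly cytotoxic gamma delta T cell, with the median as a bar, by region. GZMB is present in nearly every cell, whereas 110 of the 176 cells sit at 0 for GNLY.

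Granulysin was the gene of the rule that varied most between regions. GNLY UMIs were found in 2 of 28 DUOD cells, 2 of 21 JEJ cells, 23 of 54 IPP cells and 39 of 73 NoPP cells. The levels were 139, 1324, 1246 and 3569 CPM, and in JEJ 1 cell held 122 of the 123 UMIs. Free RNA reaches cells that do not make it, and epithelial cells without CD3E were taken as the background. Whether some of these barcodes also held a lymphocyte was not tested. A GNLY UMI was present in 7.14%, 9.52%, 42.6% and 53.4% of strongly cytotoxic cells, against 2.27%, 5.84%, 31.2% and 21.2% of epithelial cells, in DUOD, JEJ, IPP and NoPP. The epithelial cells were deeper, with medians of 22009.5, 7642, 15437.5 and 12041.5 UMIs, against 3247.5, 4440.0, 3051 and 3174 in the strongly cytotoxic cells. At 1 UMI or more the intervals of the shares were apart in NoPP alone (41.4 to 65.2% against 14.6 to 29.2%). Cells with 5 or more GNLY UMIs were 1 of 28, 1 of 21, 13 of 54 and 27 of 73 strongly cytotoxic cells, against 0 of 264, 4 of 308, 2 of 266 and 4 of 132 epithelial cells. The intervals at 5 UMIs were apart in IPP (13.5 to 37.6% against 0.0912 to 2.69%) and in NoPP (26.0 to 49.1% against 0.832 to 7.58%), and in DUOD and JEJ the share of cells with GNLY is not told from background. TRDC, of which a cell needed 2 UMIs, was present in 0.758 to 2.27% of epithelial cells. GZMB was present in 5.68%, 12.3%, 32.3% and 29.5% of them in DUOD, JEJ, IPP and NoPP, and 0, 6, 2 and 4 cells had 5 or more UMIs. Of 1140 B cells without CD3E in IPP, 14 held 5 or more UMIs of GZMB and 15 held 2 or more of TRDC.

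The share of gamma delta T cells past the limit was 31.1% in DUOD (28 of 90 cells, 95% exact binomial interval 21.8 to 41.7%), 23.3% in JEJ (21 of 90, 15.1 to 33.4%), 18.2% in IPP (54 of 297, 14.0 to 23.0%) and 20.3% in NoPP (73 of 360, 16.2 to 24.8%). The intervals of all 4 regions overlapped. With every cell thinned to 1000 UMIs the shares were 9.25%, 13.6%, 10.0% and 13.9% in DUOD, JEJ, IPP and NoPP, and DUOD was then lowest. Of all kept cells, the class made up 3.90%, 2.13%, 1.65% and 3.50%.

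The limits of the rule cut through a range. Just inside lay 11 cells with 5 UMIs of GNLY and GZMB, which held 1159 CPM of GZMA and 846 CPM of CTSW, and just outside lay 13 cells with 4, which held 1534 and 841 CPM. The 132 cells with 10 or more such UMIs held 5542 CPM of GZMA and 282 CPM of CTSW, and the 442 gamma delta T cells with 0 held 69.3 and 1309 CPM. At the TRDC limit, 11 cells with 2 UMIs stood inside and 21 cells with 1 UMI, which met the rest of the rule, outside, with 8811 and 10069 CPM of GZMA.

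Set beside weakly cytotoxic gamma delta T cells, the strongly cytotoxic cells carried far more granzyme A and PRDM1, and less CTSW, CCR9, TCF7 and MHC class II transcripts. The split between the classes is the readout that chose them, so these values describe them and no test was made. Of 2853 genes with at least 50 CPM in either class, 154 (5.4%) were more than 2-fold higher and 53 (1.86%) more than 2-fold lower. Without the mixed barcodes the shares were 3.74% and 1.94%.

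Among 12 measured genes of granules and killing, 4 were past 2-fold higher and 1 was past 2-fold lower, with a median log2 ratio of 0.40 against 0.05 over all genes. GZMA, the other main granzyme, summed here over 2 genes of that symbol, had 2601, 7784, 3525 and 6408 CPM in strongly cytotoxic cells, listed from DUOD over JEJ and IPP to NoPP, against 288, 46.0, 128 and 104 CPM in weakly cytotoxic cells, 41.3-fold more over all cells (36.9 to 46.3). The classes did not overlap in any pair of libraries. SERPINB9, which blocks granzyme B inside the cell that makes it, had 2.17-fold more (1.72 to 2.71). RAB27A, which docks granules at the membrane, had 2.54-fold more (1.78 to 3.61) and NKG7, a granule membrane protein, 2.05-fold (1.84 to 2.30), and both were higher in 3 of 4 libraries, with DUOD the exception. NKG7 was within 2-fold without IPP or without NoPP (log2 ratios 0.87 and 0.90) and with the highest doublet scores left out (0.81), and SERPINB9 without NoPP (0.78) and with a limit of 10% mitochondrial UMIs (0.83). That limit left 11 to 13 strongly cytotoxic cells per library. CTSW, cathepsin W of killer cells, went the other way, with 194, 172, 375 and 529 CPM in strongly cytotoxic cells against 1169.7, 1369, 1354 and 1221 CPM in weakly cytotoxic cells. Perforin differed less. PRF1 had 147, 161, 196 and 340.3 CPM in strongly cytotoxic cells and 137, 106, 172 and 164 CPM in weakly cytotoxic cells, 1.50-fold more (1.25 to 1.79) and higher in 4 of 4 libraries.

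Of 8 measured receptors and adaptors of the natural killer type, FCER1G was past 2-fold, joined without the mixed barcodes by CD226. It encodes an adaptor through which Fc receptors and some activating receptors signal, and had 1208, 1626, 911 and 836 CPM in strongly cytotoxic cells against 439, 455, 535 and 414 CPM in weakly cytotoxic cells, higher in 4 of 4 libraries. KLRK1 had 1.10-fold more (0.985 to 1.23), with 3 of 4 libraries higher. Of 10 measured homing genes, CCR9, the receptor that guides lymphocytes to the small intestine, was past 2-fold lower, with 0, 205, 187 and 197 CPM in strongly cytotoxic cells against 275, 509, 695 and 676 CPM in weakly cytotoxic cells. ITGAE, the integrin chain that binds E-cadherin of the epithelium, had 224, 506, 314 and 507 CPM in strongly cytotoxic cells and 226, 339, 445 and 404 CPM in weakly cytotoxic cells, a ratio of 0.993 (0.869 to 1.13).

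Of 15 measured transcription factors, 2 were past 2-fold higher and 3 past 2-fold lower. PRDM1, the repressor Blimp-1 of terminal lymphocyte states, had 38.7, 151, 47.9 and 34.0 CPM in strongly cytotoxic cells against 4.43, 8.63, 3.98 and 4.05 CPM in weakly cytotoxic cells. ID2, an inhibitor of E proteins needed by killer lymphocytes, had 2.09-fold more (1.88 to 2.31), and a log2 ratio of 0.95 without JEJ and of 0.89 with a limit of 10 UMIs of GNLY and GZMB. TCF7, a factor of less differentiated T cells, had 38.7, 108, 95.8 and 106 CPM in strongly cytotoxic cells against 230.4, 322, 374 and 379 CPM in weakly cytotoxic cells, and SOX4 and ZNF683 had log2 ratios of -2.13 and -3.44. All 3 were lower in 4 of 4 libraries. Of 7 measured cytokine receptors, IL18R1 was higher (log2 ratio 1.50) and IL7R lower (-1.29, but -0.94 with the 10% mitochondrial limit and -0.90 with a limit of 3 UMIs of GNLY and GZMB). ENTPD1, the ectoenzyme CD39 that breaks down extracellular ATP, had 23.2, 129, 74.1 and 181 CPM in strongly cytotoxic cells against 8.86, 20.1, 6.97 and 13.0 CPM in weakly cytotoxic cells.

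Of 4 measured genes of antigen presentation by MHC class II, SLA-DQB1, SLA-DMA and SLA-DMB were past 2-fold lower, and CD74, the invariant chain, was at 0.514-fold (0.473 to 0.558), past 2-fold without IPP or without NoPP (log2 ratios -1.02 and -1.16). BLK, a Src-family kinase, was past 2-fold lower among 15 measured genes of receptor signalling (2 UMIs in strongly cytotoxic cells, both in IPP, against 152 in weakly cytotoxic cells, 0.0517-fold with an interval of 0.0062 to 0.19), and so was KIT, the stem cell factor receptor (log2 ratio -1.24). Without DUOD the ratio of KIT was -0.99, and without IPP that of SLA-DMA was -0.87, both within 2-fold. SLA-DMA was also within 2-fold with the 10% mitochondrial limit (-0.97) and with a limit of 3 UMIs of GNLY and GZMB (-0.75). In the immediate early response 4 genes, EGR1, NR4A1, DUSP1 and ATF3, and outside it AREG were past 2-fold higher only with the mixed barcodes in, and 0 of the 9 measured were without them.

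Outside the lists, YBX3, LZTFL1, S100A4, TLE1, TRIM44, NAPSA and VIM were lower in 4 of 4 libraries, with log2 ratios of -2.96 to -1.69. YBX3, a cold-shock protein that binds DNA and RNA, had 38.7, 0, 8.71 and 0 CPM in strongly cytotoxic cells against 70.9, 66.2, 112 and 51.0 CPM in weakly cytotoxic cells, without overlap. The genes on the higher side were GAPT, PRKG1, ANKH, SMPDL3A, RGS18, UCP2, LTC4S and RAPGEFL1, with log2 ratios of 3.92 to 2.48 and UMIs of 36 to 151 in the strongly cytotoxic cells. UCP2, a mitochondrial carrier, had 248, 441, 152 and 163 CPM in strongly cytotoxic cells against 70.9, 63.3, 20.9 and 29.1 CPM in weakly cytotoxic cells, without overlap between the classes.

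**Figure D2:**
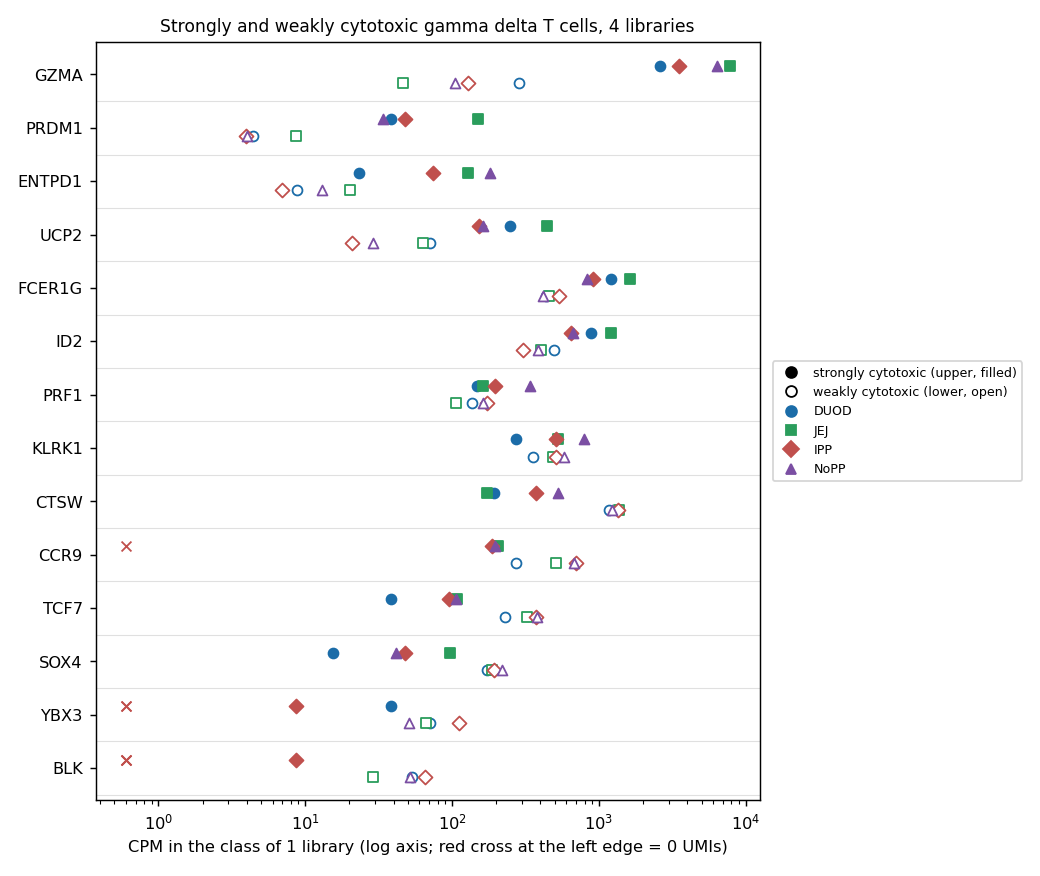
CPM (log axis) of 14 genes in strongly cytotoxic gamma delta T cells (filled, upper) and weakly cytotoxic ones (open, lower), 1 point per library, with a red cross where a class held 0 UMIs. GZMA, PRDM1 and UCP2 lie to the right in strongly cytotoxic cells and CTSW, TCF7 and YBX3 to the left, while KLRK1 overlaps.

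Strongly cytotoxic gamma delta T cells were next tested against strongly cytotoxic CD8B T cells, which had at least 1 CD8B UMI, no TRDC and otherwise the same rule, and numbered 59, 101, 148 and 233 in DUOD, JEJ, IPP and NoPP. UMIs were summed per class and library and fitted with edgeR's quasi-likelihood test with the library as a block, and p-values were adjusted by Benjamini-Hochberg over all 3092 genes tested. In gamma delta T cells 110 genes (3.56%) rose and 44 (1.42%) fell at an adjusted p under 0.05, and 12.7% of genes did not overlap between the classes. The 4 libraries served as replicates. They come from different regions, and nothing shows which animals they share.

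The gamma delta T cells had more FCER1G, KLRK1 and LAT2 and less LAT and GZMK. FCER1G averaged 1145 ± 359 CPM in gamma delta T cells and 35.2 ± 39.8 CPM in CD8B T cells (SD, n = 4 libraries each), a log2 change of 4.93 ± 0.50 (SE, adjusted p = 5.8e-05). By library it was 1208, 1626, 911 and 836 CPM in gamma delta T cells against 11.6, 3.43, 91.5 and 34.1 CPM in CD8B T cells, from DUOD over JEJ and IPP to NoPP, without overlap. KLRK1, which binds ligands shown by stressed cells, averaged 528 ± 215 CPM in gamma delta T cells and 131 ± 41.5 CPM in CD8B T cells, a log2 change of 2.01 ± 0.20 (adjusted p = 4.3e-05). Of the 8 genes tested in that list, CD244 rose as well, and SLAMF7 and HCST, the adaptor DAP10, fell (log2 changes 1.13, -1.90 and -1.68). CD244 was not called without IPP or without JEJ (log2 1.05 and 0.85), SLAMF7 not without DUOD (-1.76), and HCST neither without DUOD nor without IPP (-1.44 and -1.34). With a limit of 10 UMIs of GNLY and GZMB the calls of CD244 (0.99) and HCST (-1.81) were lost. With the 10% mitochondrial limit the calls of CD244, SLAMF7 and HCST were lost (1.06, -0.92 and -0.95).

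Of 14 tested genes of the receptor complex and its signalling, 1 rose and 3 fell, with a median log2 change of -0.28 against 0.00 over all genes. CD3G, a chain of the complex, averaged 1240 ± 387 CPM in gamma delta T cells and 552 ± 76.2 CPM in CD8B T cells (log2 change 1.15 ± 0.19, adjusted p = 0.0027). CD8A, whose product pairs with CD8B or with itself, had 101, 75.4, 118 and 216 CPM in gamma delta T cells against 659, 896, 599.9 and 759 CPM in CD8B T cells, a log2 change of -2.45 ± 0.25 (adjusted p = 6.4e-05). CD8B UMIs chose the classes, so the level of its partner CD8A is not independent of the rule and only describes them. LAT, the scaffold that couples the T cell receptor to its downstream enzymes, had 54.2, 21.5, 82.8 and 71.8 CPM in gamma delta T cells against 278, 337, 304 and 347 CPM in CD8B T cells (log2 change -2.33 ± 0.27, adjusted p = 0.00015). Its relative LAT2, better known from B and mast cells, showed the opposite. LAT2 had 356, 291, 353 and 344 CPM in gamma delta T cells against 11.6, 17.2, 35.1 and 27.3 CPM in CD8B T cells, a log2 change of 3.76 ± 0.26 (adjusted p = 1.5e-06). CD5, which dampens receptor signals, fell (log2 change -2.40 ± 0.38, adjusted p = 0.0021). The call of CD3G was lost with the 10% mitochondrial limit (1.04). CD2, an adhesion receptor, had 712, 1259.7, 701 and 991 CPM in gamma delta T cells and 1029, 1250.3, 832 and 1059 CPM in CD8B T cells and was not called (log2 change -0.19 ± 0.16, adjusted p = 0.58).

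The granule genes differed by member. Of 14 tested, GZMA rose and GZMK, GZMM and CTSW fell, with a median log2 change of 0.00. GZMA had 2601, 7784, 3525 and 6408 CPM in gamma delta T cells against 1243, 4853, 2795 and 2939 CPM in CD8B T cells, higher in 4 of 4 libraries though the ranges overlapped (log2 change 0.82 ± 0.14, adjusted p = 0.0032). GZMK was near the floor, with 15.5, 0, 17.4 and 18.9 CPM in gamma delta T cells against 162, 234, 113 and 154 CPM in CD8B T cells (log2 change -3.28 ± 0.38, adjusted p = 0.00015). GZMM had 7.74, 0, 21.8 and 30.2 CPM in gamma delta T cells against 168, 92.7, 164 and 68.1 CPM in CD8B T cells (-2.56 ± 0.43, adjusted p = 0.0027). CTSW averaged 317 ± 168 CPM in gamma delta T cells and 918 ± 267 CPM in CD8B T cells (-1.53 ± 0.29, adjusted p = 0.0064). PRF1 and NKG7 were not called, with log2 changes of 0.02 ± 0.21 (adjusted p = 0.98) and 0.51 ± 0.25 (adjusted p = 0.30). Without DUOD, NKG7 was called, with a log2 change of 0.83. The GZMA call was lost with a limit of 10 UMIs of GNLY and GZMB (0.61) and without the library block (0.79). The CTSW call was lost with that limit (-1.78) and with the 10% mitochondrial limit (-0.97), where the GZMK call was lost as well (-3.26).

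Chemokine transcripts were dominated by CCL5, which recruits lymphocytes. It stood at 14096, 23988, 20538 and 22606 CPM in gamma delta T cells, DUOD first and NoPP last, and at 27579.7, 29272, 23850.3 and 26163 CPM in CD8B T cells (log2 change -0.39 ± 0.11, adjusted p = 0.061). It was called without DUOD (-0.22) and without the mixed barcodes (-0.31). XCL1, the chemokine for cross-presenting dendritic cells, averaged 550 ± 161 CPM in gamma delta T cells and 234 ± 77.9 CPM in CD8B T cells and rose (1.26 ± 0.22, adjusted p = 0.0032). CCL3L1 fell (-1.13), a call lost without DUOD, IPP or JEJ, where the log2 change was -1.08, -1.08 and -1.03. IFNG had 1 UMI in all 176 cells, and TNF, IL17A, IL17F, IL22 and IL2 had 0, all under the floor of 3 UMIs.

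Of 7 tested cytokine receptors, IL2RB, the chain for interleukin 2 and interleukin 15, rose, and IL7R and IFNGR1 fell. IL2RB averaged 222 ± 103 CPM in gamma delta T cells and 87.5 ± 21.0 CPM in CD8B T cells (1.25 ± 0.25, adjusted p = 0.0085). IL7R had 31.0, 0, 74.1 and 75.6 CPM in gamma delta T cells against 243, 161, 275 and 206 CPM in CD8B T cells (-2.09 ± 0.34, adjusted p = 0.0026). IFNGR1 (-1.05) was not called without DUOD (-0.96), IPP (-1.23) or JEJ (-0.95). Among the homing genes, ITGB1 and RGS1 rose and CXCR3 fell. ITGB1, the beta 1 integrin chain, averaged 333 ± 54.2 CPM in gamma delta T cells and 112 ± 27.5 CPM in CD8B T cells (1.60 ± 0.20, adjusted p = 0.00031), and CXCR3, a receptor for interferon-induced chemokines, had a log2 change of -2.08 ± 0.38 (adjusted p = 0.0048). RGS1 (0.96) was not called without IPP (0.93) or JEJ (0.77). With a limit of 10 UMIs of GNLY and GZMB the calls of RGS1 (0.82) and CXCR3 (-2.13) were lost, and with the 10% mitochondrial limit those of IL2RB (1.17), IL7R (-1.48) and IFNGR1 (-0.27). ITGAE and CCR9 were not called, with log2 changes of 0.27 ± 0.20 and -0.46 ± 0.41.

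Of 12 tested transcription factors, IKZF2, NFIL3, TOX and ID2 rose and 0 fell, with a median log2 change of 0.07. IKZF2, the factor Helios, had 217, 592, 314 and 363 CPM in gamma delta T cells against 63.6, 92.7, 91.5 and 89.9 CPM in CD8B T cells (2.09 ± 0.22, adjusted p = 6.9e-05). NFIL3, needed for innate lymphoid cells, had 286, 312, 166 and 185 CPM in gamma delta T cells against 28.9, 79.0, 83.7 and 99.5 CPM in CD8B T cells (1.55 ± 0.31, adjusted p = 0.0088). With a limit of 10 UMIs of GNLY and GZMB the NFIL3 call was lost (1.45). TOX (1.14) and ID2 (0.87) were not called without DUOD (1.17 and 0.75), IPP (1.09 and 0.99) or JEJ (0.90 and 0.70). GATA3 was not called (0.47 ± 0.27, adjusted p = 0.38), TBX21 held 7.74, 0, 26.1 and 41.6 CPM in gamma delta T cells, EOMES 1 UMI and SOX13 none.

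The top of the list outside these groups was MEF2C, a transcription factor known from B cells, myeloid cells and muscle. Its level was 719.9, 528, 335 and 56.7 CPM in gamma delta T cells, in the same order of regions, against 0, 0, 1.95 and 0 CPM in CD8B T cells, where 3 of 4 libraries held 0 UMIs (adjusted p = 7.6e-08, edgeR's quasi-likelihood test). FGR, a Src-family kinase of myeloid and natural killer cells, had 472, 592, 205 and 52.9 CPM in gamma delta T cells against 0, 0, 13.6 and 6.81 CPM in CD8B T cells (log2 change 4.95 ± 0.54, adjusted p = 9.3e-05). LDHD, FSCN1, FAM49A, GRASP and MATK rose by log2 3.90 to 4.69. MATK encodes a kinase that restrains Src-family kinases and FSCN1 an actin-bundling protein. On the other side PCED1B, RGS10, PVRIG, CCNYL1, SH3KBP1, BCL2A1 and SIT1 fell, with log2 changes of -2.24 to -1.65. PVRIG is an inhibitory receptor and SIT1 an adaptor that restrains receptor signals. With the 10% mitochondrial limit PVRIG (-1.35), SH3KBP1 (-0.98) and SIT1 (-1.96) were not called, and BCL2A1 was not with a limit of 10 UMIs of GNLY and GZMB (-1.57).

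**Figure D3:**
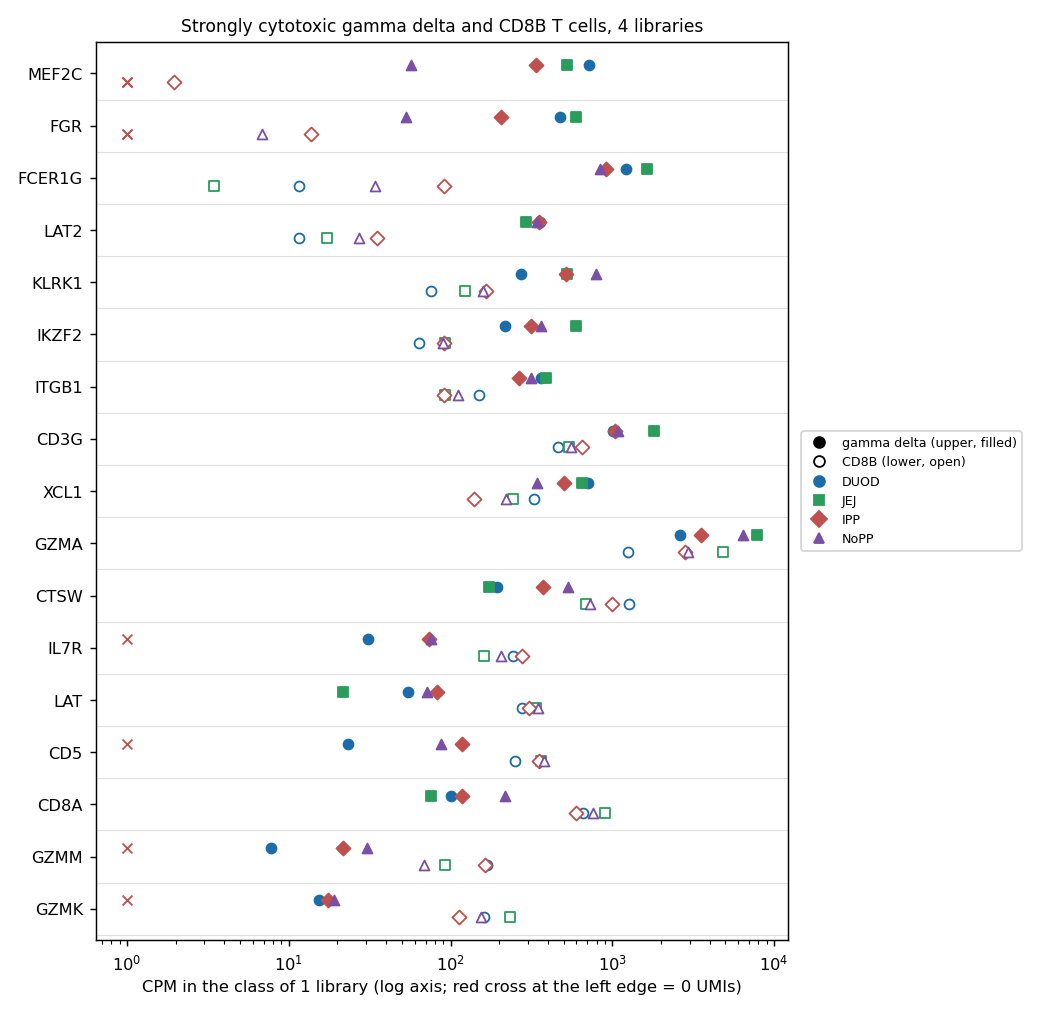
CPM (log axis) of 17 genes in strongly cytotoxic gamma delta T cells (filled, upper) and strongly cytotoxic CD8B T cells (open, lower), 1 point per library, with a red cross where a class held 0 UMIs. FCER1G, LAT2 and KLRK1 lie apart to the right in gamma delta T cells and LAT, CD8A and GZMK apart to the left, while GZMA overlaps.

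CD3-negative cytotoxic cells, which had no UMI of CD3E, CD3D, CD3G, TRDC or CD8B and passed the same GNLY and GZMB limit, numbered 18 in IPP and 24 in NoPP, and 9 each in DUOD and JEJ, too few for the fit. Over IPP and NoPP, 18 genes (0.823%) rose and 23 (1.05%) fell of 2188 in gamma delta T cells, by edgeR's quasi-likelihood test. That fit had 1 residual degree of freedom, 1 mixed barcode held 41.3% of the CD3-negative UMIs in IPP, and without the library block 0 genes were called. Without the mixed barcodes 7 rose and 4 fell, and DESeq2 called 2 and 1. XCL1 had 505 CPM in IPP and 344 CPM in NoPP in gamma delta T cells, against 36.1 and 53.2 CPM in CD3-negative cells (log2 change 3.23, adjusted p = 2.2e-07 in this fit). TYROBP, the adaptor DAP12, had 17.4 and 34.0 CPM in gamma delta T cells against 126 and 266 CPM in CD3-negative cells (-2.85, adjusted p = 2.5e-05 in this fit). DESeq2 and the fit without the library block called neither gene. FCER1G had 911 and 836 CPM in gamma delta T cells and 938 and 939 CPM in CD3-negative cells (-0.08, adjusted p = 0.996 in this fit).

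Across regions, strongly cytotoxic gamma delta T cells of DUOD and JEJ carried far more MEF2C, FGR and PLEKHO1 than those of NoPP. MEF2C had 719.9, 528, 335 and 56.7 CPM in DUOD, JEJ, IPP and NoPP, FGR 472, 592, 205 and 52.9 CPM and PLEKHO1 549.6, 743, 309 and 94.5 CPM in the same order. In all 3 genes NoPP was lowest and IPP next, and the intervals of DUOD and JEJ lay above those of IPP, except that the MEF2C intervals of JEJ and IPP overlapped. MEF2C was seen in 17 of 28, 11 of 21, 12 of 54 and 3 of 73 cells, FGR in 17, 13, 14 and 10 and PLEKHO1 in 17, 14, 22 and 17. JAML, a junctional adhesion molecule, had 294, 258, 139 and 94.5 CPM in the same order, and there the intervals of JEJ and IPP and of IPP and NoPP overlapped.

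**Figure D4:**
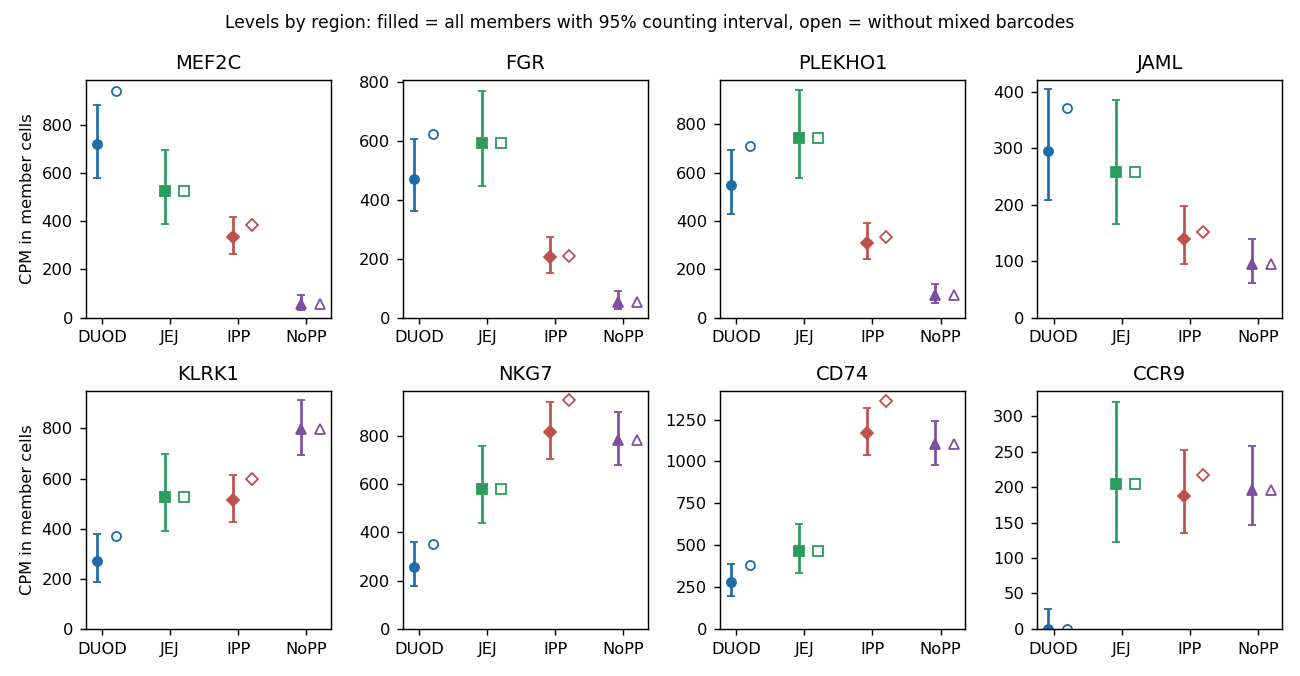
CPM of 8 genes in strongly cytotoxic gamma delta T cells by region, filled with 95% counting intervals for all cells and open without the mixed barcodes. MEF2C, FGR, PLEKHO1 and JAML are lowest in NoPP, KLRK1, NKG7 and CD74 are lowest in DUOD, and CCR9 held 0 UMIs in DUOD.

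NoPP was compared with DUOD over 3262 genes with at least 50 CPM in either, of which 570 (17.5%) were past 2-fold higher and 582 (17.8%) past 2-fold lower, and without the mixed barcodes 13.7% and 16.1%. Of 13 measured granule genes 8 were past 2-fold higher and 0 lower, with a median log2 ratio of 1.21 against 0.07 over all genes, and without the mixed barcode of DUOD 3 were higher and 1 lower. A gene counted here only when 1 of the 2 regions reached 50 CPM. NKG7 had 783 CPM in NoPP against 255 CPM in DUOD, 3.06-fold more (2.11 to 4.57), and 1.55 to 3.34-fold without the mixed barcode. GZMA had 6408 CPM in NoPP against 2601 CPM in DUOD, a log2 ratio of 1.30, of 0.88 without that barcode and of 0.42 with the 10% mitochondrial limit. Those of PRF1 and CTSW were 1.21 and 1.45, and 0.76 and 1.00 without it.

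Of 8 measured natural killer type genes 6 were past 2-fold higher in NoPP than in DUOD and 0 lower, against 4 of 9 without the mixed barcode. Taken as the mean of the cells' own CPM, which gives each cell the same weight, the log2 ratios of KLRK1, GZMA, PRF1 and CTSW were 0.91, 0.90, 0.35 and 0.62. KLRK1 had 798 CPM in NoPP against 271 CPM in DUOD, a log2 ratio of 1.56, and 1.11 without that barcode. Cells with KLRK1 were mostly other cells than those with MEF2C, a split chosen after the values were seen and given as a description. Of the 43 cells with a MEF2C UMI 7 held KLRK1, with at most 2 UMIs each, against 110 of the 133 cells without MEF2C. MEF2C was present in 17 of 28 DUOD cells and 3 of 73 NoPP cells. Among the cells without MEF2C, KLRK1 stood at 1161, 1064, 872 and 827 CPM in DUOD, JEJ, IPP and NoPP. These levels rest on 11, 10, 42 and 70 cells with 32, 47, 115 and 211 UMIs of KLRK1. Whether the mix of cells bears on the ratio between regions was not tested. The median cell with MEF2C held 3923, 4614, 5217 and 3731 UMIs, against 2363, 3692, 2869.5 and 3167.5 in the cells without, and a deeper cell more often shows a UMI of any gene. Of 14 measured receptor genes 8 were higher, against 6 without it, led by FYN, a Src-family kinase, and CD247, the zeta chain (log2 ratios 2.55 and 2.08, and 2.10 and 1.63 without it). CCR9 had 197 CPM in NoPP against 0 UMIs in the 28 DUOD cells, at least 8.47-fold higher (floor of 3 UMIs over the DUOD cells), or 6.19-fold without the mixed barcode. JAML and XCL1 were past 2-fold lower in NoPP (log2 ratios -1.64 and -1.03), as was MEF2C (-3.67), and without the mixed barcode these were -1.97, -1.47 and -4.06. XCL1 was within 2-fold with the highest doublet scores left out (-0.84), with the 10% mitochondrial limit (-0.53) and with a limit of 3 UMIs of GNLY and GZMB (-0.67).

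Neither NoPP nor JEJ held a mixed barcode among the strongly cytotoxic gamma delta T cells. Of 3196 genes, 398 (12.5%) were past 2-fold higher in NoPP and 456 (14.3%) past 2-fold lower. FGR was at 0.0894-fold (0.0459 to 0.163), MEF2C at 0.107-fold (0.056 to 0.195) and PLEKHO1 at 0.127-fold (0.0771 to 0.204). Of 14 measured granule genes 3 were higher and 2 lower, and GZMA had 6408 CPM in NoPP against 7784 CPM in JEJ. CTSW and CRTAM, a receptor of activated killer cells, were 3.07-fold (1.83 to 5.52) and 3.12-fold (1.94 to 5.32) higher in NoPP. All 3 measured MHC class II genes were past 2-fold higher, with CD74 at 2.38-fold (1.73 to 3.37). ITGB7, the integrin partner of ITGAE, was lower (log2 ratio -1.19), and -0.97 with the highest cell of each region left out.

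JEJ was compared with DUOD over 3304 genes, of which 567 (17.2%) were past 2-fold higher and 499 (15.1%) lower, and 14.5% and 13.0% without the mixed barcode. CD247 had 947 CPM in JEJ against 194 CPM in DUOD (log2 ratio 2.29, and 1.84 without that barcode), and RUNX3, a factor of killer and epithelial T cells, 279.9 CPM in JEJ against 92.9 CPM in DUOD (1.59, and 1.40). GZMA was 2.99-fold higher in JEJ (2.63 to 3.42), and 1.96 to 2.56-fold without that barcode. Of 13 measured transcription factors 7 were past 2-fold higher and 0 lower, and 6 of 14 without it. Of 13 measured immediate early genes 6 were lower in JEJ, against 3 of 12 without it, and so were 6 of 8 measured epithelial genes, against 1 of 5.

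IPP and NoPP, both of the ileum, had the smallest share of genes past 2-fold among the 4 pairs of regions compared, and also the most UMIs. Of 3039 genes 281 (9.25%) were past 2-fold higher in IPP and 260 (8.56%) lower, and without the mixed barcode 172 of 3006 (5.72%) and 238 (7.92%). MEF2C, FGR and PLEKHO1 were higher in IPP, with log2 ratios of 2.56, 1.95 and 1.71, and 2.76, 1.97 and 1.82 without the mixed barcode. None of 13 measured granule genes was past 2-fold in either direction, with or without it. ENTPD1 was lower in IPP (log2 ratio -1.29, and -1.08 without it), but within 2-fold as the mean of the cells' CPM (-0.84) and with the 10% mitochondrial limit (-0.70). KLRB1 had 0 UMIs in IPP against 102 CPM in NoPP, at least 7.81-fold lower in IPP (floor of 3 UMIs). Of 13 measured immediate early genes 8 were past 2-fold higher in IPP, and 0 of 10 without the mixed barcode. IPP held 18 of the 33 cells of the class with high doublet scores, and 86 of the 133 marked among all kept cells.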

How the data were processed

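Single-cell RNA was measured in 4 libraries, 1 per gut region. The deposited values are raw UMI counts per gene and barcode, written by Cell Ranger version 4 per the file headers (4.0.6 per the submitters' processing notes); the genome build is not given in the sources used here. Of 25880 genes, 17733 had a symbol in the files and 977 more got one from a gene name table. TRAC, TRBC, TRGC, GZMH, KLRC1 and FCGR3A had no symbol and were not analysed here.

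Kept barcodes had 1000 or more UMIs, 500 or more genes and no more than 25% of UMIs from 13 mitochondrial genes. Members, classes and gene lists were chosen with earlier results of these data known. UMIs were summed per class and library. Ratios between libraries carry exact conditional Poisson intervals (95%, counting error only), over genes with at least 50 CPM in either group, and "past 2-fold" describes their size. Classes were tested with edgeR 4.0.16 in R 4.3.3 (TMM, filterByExpr, quasi-likelihood, library as block, Benjamini-Hochberg at 0.05). The fit was also run on simulated data with 200 genes changed 4-fold, a dispersion of 0.05 and no library effect beyond depth. It recovered 94.5% of them in the CD8B design and 76.5% in the CD3-negative design. The changed genes were drawn only from those with higher expected counts, so these shares do not cover genes with few UMIs. Doublets were scored with Scrublet (scanpy 1.11.5) and not removed. Alternatives were DESeq2 1.42.0, other limits, scalings and filters, leaving out each library, and, added after seeing the data, leaving out mixed barcodes, those with over 1% of UMIs from the epithelial list. Per list, up to 4 genes per direction with the largest change were to be named, beside a fixed set of T cell genes, and up to 8 outside the lists. A few genes that this rule names are not reported here.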

Additional observations from a re-analysis of the deposited data

How the results depend on the processing

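No named gene past its threshold reversed its direction under any alternative. In the edgeR fits a change of sign in a gene that was not called was counted as unchanged. Of the values recomputed for named genes, 1879 stayed on their side of the threshold, 147 lost it and 14 gained it. Of the shares and counts, 192 stayed close and the following moved. Thinned to 1000 UMIs, the shares of gamma delta T cells that were strongly cytotoxic were 9.25%, 13.6%, 10.0% and 13.9% in DUOD, JEJ, IPP and NoPP. With a mitochondrial limit of 10% they were 10.2% in IPP and 7.97% in NoPP, with at least 10 UMIs of GNLY and GZMB 16.7% in DUOD and 15.8% in NoPP, and without the highest doublet scores 12.9% in IPP.

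Counts of genes past 2-fold, higher then lower, with at least 200 CPM were 56 and 74 for JEJ against DUOD, 40 and 79 for NoPP against JEJ, 59 and 18 for IPP against NoPP, 92 and 114 for NoPP against DUOD, and 39 and 11 for strongly against weakly cytotoxic cells. With no CPM minimum, 358 were higher for JEJ against DUOD and 606 for NoPP against JEJ, and the counts were 511 and 566 for IPP against NoPP and 769 and 709 for strongly against weakly cytotoxic cells. With each gene's highest cell left out, 179 were lower for JEJ against DUOD, 266 for NoPP against JEJ and 176 for NoPP against DUOD, and 92 were higher for IPP against NoPP and 83 for strongly against weakly cytotoxic cells. With the 10% mitochondrial limit they were 440 and 444 for IPP against NoPP and 265 and 193 for strongly against weakly cytotoxic cells. Without the mixed barcodes 172 were higher in IPP than in NoPP. Leaving out each library in turn moved the genes lower in strongly than in weakly cytotoxic cells to between 54 and 98.

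Against CD8B T cells, edgeR called 16 higher and 5 lower with the 10% mitochondrial limit, 54 and 24 with at least 10 UMIs of GNLY and GZMB, and 238 and 159 over all genes with a UMI, DESeq2 called 71 and 27, and 70 were lower without the mixed barcodes. Leaving out each library in turn gave 71 to 167 higher and 23 to 79 lower. Against CD3-negative cells, edgeR called 5 and 3 with 500 UMIs, 6 and 3 with a 40% mitochondrial limit, 6 and 11 with TRDC of at least 3, 6 and 1 with at least 3 UMIs of GNLY and GZMB, 4 and 7 without high doublet scores, 7 and 4 without mixed barcodes, and 0 and 0 without the library block, and DESeq2 2 and 1. With at least 10 UMIs of GNLY and GZMB 6 were lower, and over all genes 31 were higher. A fit leaving out a library was not run there, since 1 library leaves no residual degrees of freedom. The cause was not tested.

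No paired analysis was possible because the titles numbered alike across regions cannot be tied to cells. A class of 21 to 73 cells per library limits each level to a floor of 11.3 to 32.3 CPM, and the intervals do not cover differences between animals.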
